A study of Rattus norvegicus with 8 samples.

Results

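Ucma and Mgp encode the small Gla-rich proteins of cartilage, and each was read by 1 probe set, so the pair makes up 2 of the 14217 genes named on the arrays and 2 of the 31042 probe sets analysed. All probe sets that the platform annotation maps to either gene alone were taken, namely 1380444_at for Ucma and 1367568_a_at for Mgp. Both genes were selected on their zone levels in these arrays, in which earlier results had shown the pattern of Ucma. The RNA came from femoral growth plate cartilage of rats (Rattus norvegicus), where a growing long bone gains its length. Its 4 zones are labelled perichondral, reserve, proliferative and hypertrophic, and every zone has 1 array from rats aged 42 days and 1 from rats aged 46 days, with RNA pooled from 3 rats per array. No treatment or genetic change is labelled for any group. The strain and sex, the way the zones were separated and whether pools of different zones share rats are not given in the sources used here. The submitters treat the ages as replicates, so each zone has n = 2 arrays, and its spread mixes pool and age.

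Gla proteins carry gamma-carboxyglutamate, a modified glutamate that binds calcium. The carboxylase Ggcx makes it with reduced vitamin K as cofactor, and the reductase Vkorc1 regenerates that cofactor. Mgp (matrix Gla protein) is secreted by chondrocytes and by vascular smooth muscle, binds BMP2 and BMP4 and is a known inhibitor of soft tissue and arterial calcification. Ucma (upper zone of growth plate and cartilage matrix associated, also called Gla-rich protein) takes its name from the part of the growth plate above the hypertrophic zone, where it was described.

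The 250 bases in front of the Ucma start site are shown because Ucma differed at least 55.4-fold between perichondral and hypertrophic arrays. They lie at chr17:78212997-78213246 on the minus strand of RefSeq build GRCr8 and read 5′ to 3′, with the matches described next in capitals.
Ucma: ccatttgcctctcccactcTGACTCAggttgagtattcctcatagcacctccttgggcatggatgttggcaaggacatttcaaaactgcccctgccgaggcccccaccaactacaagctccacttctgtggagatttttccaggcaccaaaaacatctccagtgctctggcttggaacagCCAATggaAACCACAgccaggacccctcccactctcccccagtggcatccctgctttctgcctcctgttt
In all, 7 motifs were searched on both strands. The AP-1 motif TGACTCA starts at base -231 counted from the start site, and 4.05% of 33469 RefSeq promoter windows of this length hold it. The Runx motif AACCACA starts at -62 (4.59% of windows) and the CCAAT box, spelled CCAAT, at -70 (34.0%), and these matches do not overlap. The letters of the Sox motif AACAATG (3.44% of windows), the Fox motif TGTTTAC (3.21%), the TATA box TATAAA (12.9%) and the GC box GGGCGG (30.5%) are not in this window. A match of letters is no evidence of a bound site.

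Values are log2(intensity + 16) after quantile normalization, and differences are on that scale, which understates differences of dim genes. As a yardstick for dim signal, the 0.95 quantile of 30 genes typical of other organs was 9.60, called the other-organ level here. The array medians of the deposited intensity ran from 226.6 to 348.9, and precision is limited by having 8 arrays. Col10a1, the collagen that defines hypertrophic cartilage, was highest in the hypertrophic arrays at 16.9 and 15.3, against 10.9 to 13.8 in the other 6. The list of 8 hypertrophic chondrocyte markers did not separate this zone from reserve. It summed to 265183 and 46187 in hypertrophic and 76576 and 51942 in reserve arrays at 42 and 46 days. Between these zones, the larger mean was hypertrophic for 4 markers and reserve for 4. Against perichondral and proliferative arrays, the hypertrophic mean was the larger for 7 and 6 markers. The summed intensity of 8 proliferating cell markers did not set the proliferative arrays apart (13055 and 9305, against 9471 to 30795 elsewhere), and of 6 measured resting chondrocyte markers only Spon1 was above the other-organ level in any array. Across the 0.2 of probe sets that were brightest, the proliferative array of 46 days correlated with the hypertrophic array of that age at r = 0.735. Their correlations with the 42-day array of their own zone were lower, at 0.615 and 0.531. These are taken across genes, and genes are not independent replicates.

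Ucma was bright in every array outside the hypertrophic zone and dim in both arrays inside it. Its log2 level at 42 and 46 days was 15.80 and 14.99 in perichondral, 15.86 and 14.02 in reserve, 14.19 and 12.90 in proliferative and 9.16 and 9.39 in hypertrophic arrays. The corresponding deposited intensities were 74497 and 31252, 67698 and 16995, 21836 and 4942, and 547 and 693. Both hypertrophic values lay below the other-organ level, and the other 6 arrays lay above it by more than 3 log2 units. In these pooled tissue samples, fewer cells of a type and less RNA per cell cannot be told apart.

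The Ucma zone means were 15.39 ± 0.57 (SD, n = 2) in perichondral arrays, 14.94 ± 1.30 in reserve arrays, 13.54 ± 0.91 in proliferative arrays and 9.27 ± 0.16 in hypertrophic arrays. Because zone levels chose the genes, the zone differences are a description and carry no test. Perichondral and reserve arrays overlapped, as did reserve and proliferative arrays, while the proliferative and hypertrophic arrays did not. Overlap, here and for Mgp and Bglap below, only describes 2 arrays beside 2 others. The share of all probe sets without overlap was not determined, so a lack of overlap does not set a gene apart. Ucma was higher in perichondral than in hypertrophic arrays by 6.12 (SE 0.70), in a comparison where 0.029% of all probe sets were called. It was higher in reserve than in hypertrophic arrays by 5.67 (SE 0.70), where 0.0226% were called, and in proliferative than in hypertrophic arrays by 4.27 (SE 0.70), where 0.0129% were called. Since both hypertrophic values lay below the other-organ level, a fold was taken only against that level. With each lower array set to it, the differences were at least 55.4-fold, 40.4-fold and 15.4-fold in the same order. Within one age, the perichondral to hypertrophic difference was 6.64 at 42 days and 5.60 at 46 days, and the proliferative to hypertrophic difference was 5.03 and 3.51.

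Above the hypertrophic zone the Ucma differences were smaller. Perichondral arrays were higher than proliferative arrays by 1.85 (SE 0.70), 3.61-fold, without overlap, where 0% of probe sets were called (limma, with 1551 at an unadjusted p under 0.05). Reserve arrays were higher than proliferative arrays by 1.40 (SE 0.70), and perichondral than reserve arrays by 0.46 (SE 0.70), both with overlap. RNA quality was read from the Gapdh control probe sets, as signal at the 3′ end over signal at the 5′ end. This ratio was 4.47 and 3.78 in perichondral, 8.15 and 3.96 in reserve, 7.10 and 5.39 in proliferative and 4.30 and 3.63 in hypertrophic arrays at 42 and 46 days. The part of RNA quality in the zone differences was not tested.

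Mgp followed the same order of zones with a much wider spread within each zone. Its log2 level at 42 and 46 days was 14.44 and 13.22 in perichondral, 15.41 and 12.19 in reserve, 12.30 and 8.07 in proliferative and 9.99 and 7.77 in hypertrophic arrays. The deposited intensities were 31835 and 9562, 52926 and 4841, 5595 and 308, and 998 and 227. The proliferative and hypertrophic arrays of 46 days lay below the other-organ level, the 42-day hypertrophic array lay just above it, and the other 5 were well above.

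The Mgp zone means were 13.83 ± 0.87 (SD, n = 2) in perichondral arrays, 13.80 ± 2.28 in reserve arrays, 10.19 ± 2.99 in proliferative arrays and 8.88 ± 1.57 in hypertrophic arrays. Each neighbouring pair in that order overlapped. Mgp did not overlap between perichondral and hypertrophic arrays, which differed by 4.95 (SE 1.14), between reserve and hypertrophic arrays, which differed by 4.91 (SE 1.14), and between perichondral and proliferative arrays, which differed by 3.64 (SE 1.14). With arrays below the other-organ level set to it, these are at least 16.4-fold, 16.01-fold and 7.36-fold, and like those of Ucma they are a description with no test. The proliferative to hypertrophic difference of Mgp was 1.30 (SE 1.14), at 2.31 for 42 days and 0.30 for 46 days, whereas that of Ucma was 4.27. The perichondral to reserve difference was 0.03 (SE 1.14) and hid opposite signs at the 2 ages, -0.96 at 42 days and 1.03 at 46 days.

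**Figure D1:**
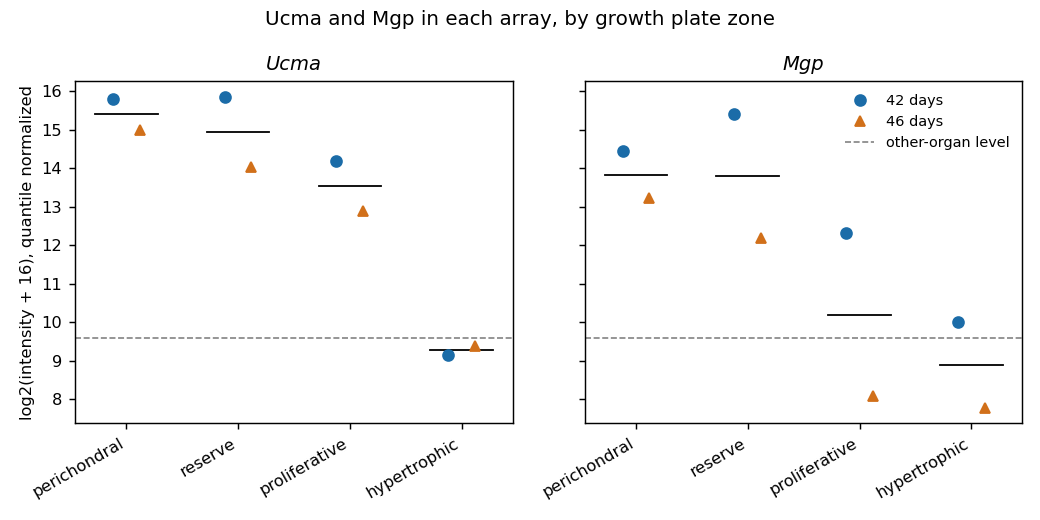
Each point is 1 array, with the zone on the x axis and log2(intensity + 16) after quantile normalization on the y axis, for Ucma (left) and Mgp (right). Circles are 42-day and triangles 46-day arrays, black bars are zone means, and the dashed line is the other-organ level of 9.60. Ucma is at 9.16 and 9.39 in the hypertrophic zone, and the Mgp triangle lies below the circle in all 4 zones.

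After normalization, the order of the zones was the same for both genes at each age. At 42 days it ran from reserve through perichondral and proliferative to hypertrophic, and at 46 days perichondral stood above reserve. As deposited, Ucma at 42 days was higher in the perichondral array (74497) than in the reserve array (67698). The proliferative and hypertrophic Mgp values of 46 days were both below the other-organ level, so their order says little. Across the 8 arrays, Ucma and Mgp correlated with Pearson r = 0.83 and Spearman rho = 0.93, given as a description. The arrays farthest from the Ucma median were the hypertrophic ones, and without them r was 0.96 over 6 arrays. All arrays share the zones and ages, and Mgp ranked 157 by closeness to Ucma among 4388 other bright and variable probe sets.

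Markers of other cell types that a dissected zone can hold also differed between zones. The fibrous perichondrium and periosteum list (13 of 13 genes measured) summed to 181325 and 73659 in perichondral, 180402 and 153362 in reserve, 17872 and 8587 in proliferative and 236194 and 14391 in hypertrophic arrays at 42 and 46 days, with 4 to 9 members above the other-organ level. The highest of these sums was that of the 42-day hypertrophic array. The smooth muscle and pericyte list is given because vascular smooth muscle is a known source of Mgp. Of its 9 markers, 1 (Myocd) was above the other-organ level in 7 arrays and 2 in the 46-day proliferative array. Acta2 ran from 5.1 to 8.2 and Tagln from 4.8 to 6.1, below that level in every array. The summed smooth muscle list ran from 5106 to 5375 in perichondral, from 3107 to 3831 in reserve, from 5752 to 7185 in proliferative and from 2933 to 4977 in hypertrophic arrays. The leukocyte and marrow list (11 of 12 genes measured) summed to 41003 and 44845 in the reserve arrays and 22369 in the 42-day hypertrophic array, against 1528 to 3984 in the other 5. Bone, osteoclast and blood markers set reserve arrays and, for some, the hypertrophic ones apart too. The osteoblast and osteocyte list (6 of 8 genes measured) summed to 37117 and 42707 in reserve and 78772 and 6297 in hypertrophic arrays at 42 and 46 days, against 2262 to 13529 elsewhere. The osteoclast list (6 of 10) summed to 22459 and 11724 in reserve and 6967 and 6006 in hypertrophic arrays, against 222 to 1706 elsewhere. The erythroid list (7 of 8) summed to 13663 and 38963 in reserve and 11367 and 2955 in hypertrophic arrays, against 1774 to 3912 elsewhere. The endothelial list (8 of 9) summed to 6802 and 8514 in reserve arrays, against 2633 to 3604 in the other 6. The part of these cells in the levels of Ucma and Mgp was not tested.

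Mgp was lower at 46 than at 42 days in all 4 zones. The mean over zones was 13.04 at 42 days and 10.31 at 46 days, a difference of -2.72 (SE 0.42), or at least 3.69-fold with both dim arrays of 46 days set to the other-organ level. The zone differences were -1.22 in perichondral arrays, -3.22 in reserve arrays, -4.23 in proliferative arrays and -2.22 in hypertrophic arrays. On the deposited scale the 42-day intensity was 3.33 times that of 46 days in perichondral and 10.9 times in reserve arrays. In proliferative and hypertrophic arrays, where the 46-day value was below the other-organ level, the normalized 42-day value was at least 6.52 and 1.31 times as high. Mgp ranked 1 of 31042 probe sets by unadjusted p for age (limma, zone as a covariate), yet its adjusted p of 0.0693 missed the threshold of 0.05. By this test 0% of the 31042 probe sets were called and 2616 had an unadjusted p under 0.05. The adjusted p of Mgp (limma) was 0.0166 with the values as deposited, 0.00475 with median-centred arrays and 0.0481 with a pseudocount of 64. Without a trend of the variance with level, it was 0.676 (SE 0.63). It ran from 0.00475 to 0.811 over 15 alternatives, of which 12 did not pass. An exact sign-flip test over the 4 zones gave p = 0.125, two-sided, the smallest that 4 zones allow. Both tests take the 4 zone differences as independent, although whether pools of different zones share rats is not known.

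Ucma was lower at 46 days in 3 of 4 zones, by a smaller amount. Its mean was 13.75 at 42 days and 12.82 at 46 days, a difference of -0.93 (SE 0.37, adjusted p = 0.53 with limma). The zone differences were -0.81 in perichondral arrays, -1.84 in reserve arrays, -1.29 in proliferative arrays and 0.23 in hypertrophic arrays, the last among values below the other-organ level. Of all probe sets 7.73% were lower at 46 days in all 4 zones. Among the 8533 with their highest zone mean above the other-organ level, the share was 9.49%.

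The Gapdh ratio was lower at 46 than at 42 days in every zone as well. With its log2 value as a covariate, an alternative added after the values were seen, the age difference was -2.02 (SE 0.76, adjusted p = 0.811) for Mgp and -0.06 (SE 0.66, adjusted p = 0.995) for Ucma. The summed fibrous, hypertrophic and resting chondrocyte marker lists were also lower at 46 days in 4 of 4 zones, and the smooth muscle list in 0 of 4. The fibrous list differed most between the hypertrophic arrays, and without a hypertrophic array the Mgp difference was -2.89 (adjusted p = 0.144 and 0.126). Both the Gapdh ratio and the fibrous sum were lower at 46 days in every zone. The part of RNA quality and of other cells therefore cannot be told apart from age here, and these fits do not test it.

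**Figure D2:**
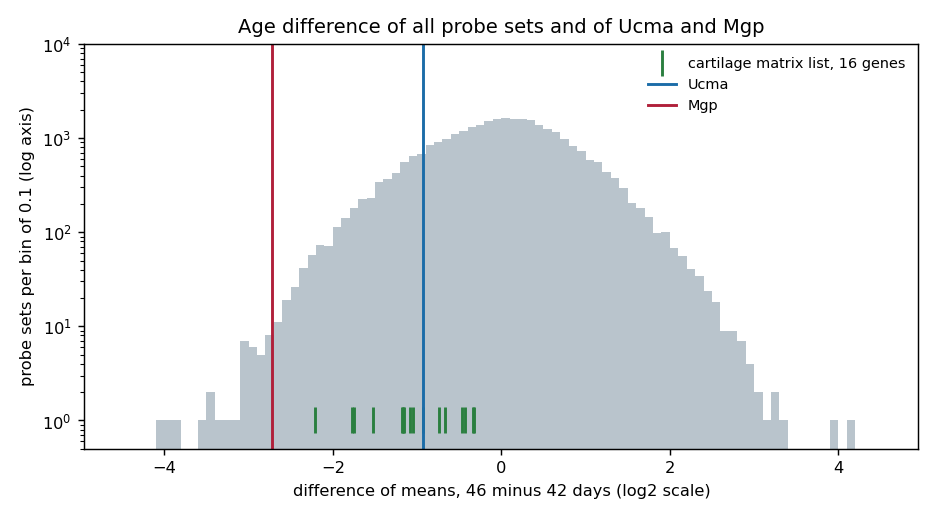
The histogram counts all 31042 probe sets by their 46 minus 42 day difference (log2 scale, bins of 0.1, log count axis). Vertical lines mark Mgp at -2.72 and Ucma at -0.93, and green ticks mark the 16 cartilage matrix genes, all of them below 0.

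Cartilage matrix genes, the setting in which both proteins are secreted, were lower at 46 days together with Mgp. All 16 measured members (of 20 listed) had a negative age difference, with a median of -1.07 beside -0.06 over all 14217 genes, of which 53.5% were lower, and none was called. They were also 16 of 16 lower with values as deposited and median-centred, and 14 of 16 without the reserve arrays. By zone 16 were lower in perichondral arrays, 16 in reserve arrays, 12 in proliferative arrays and 13 in hypertrophic arrays, the last 2 counts being 12 and 12 with values as deposited and 15 and 13 median-centred. Fmod, a collagen-binding proteoglycan, was at 13.38 and 11.28 in perichondral, 14.13 and 11.86 in reserve, 10.75 and 8.57 in proliferative and 8.55 and 6.24 in hypertrophic arrays at 42 and 46 days, an age difference of -2.22 (SE 0.37, adjusted p = 0.0693 with limma). In contrast Col2a1, the main cartilage collagen, differed by -0.47 (SE 0.52) with age.

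The same list was 16 of 16 lower in hypertrophic than in perichondral arrays (median difference 1.21, against 0.02 over all genes) and than in reserve arrays (1.48, against 0.07), with 0 genes called in each. Over all genes, 49.2% and 47.6% were higher in hypertrophic than in perichondral and reserve arrays. Chad, a leucine-rich protein of cartilage, was at 10.59 in perichondral and 5.98 in hypertrophic arrays, and Prelp, another leucine-rich matrix protein, was at 9.81 in reserve and 5.06 in hypertrophic arrays. The difference between the highest and lowest zone was 5.60 for Fmod, 4.76 for Prelp and 4.61 for Chad. Col2a1 spanned 1.20, from 17.69 in perichondral to 16.50 in hypertrophic arrays, so members of one list differed widely in span.

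The vitamin K cycle supplies the carboxylation of both proteins. Most of its measured genes had their lowest zone mean in the hypertrophic zone, but none passed the test, and some of the gaps were uneven between the ages. Of 6 measured genes (7 listed), 6 were lower in hypertrophic than in perichondral arrays (median difference 1.78, against 0.02 over all genes), 6 than in reserve arrays (2.01, against 0.07) and 5 than in proliferative arrays, Nqo1 being the exception. Over all genes, 49.2%, 47.6% and 50.0% were higher in hypertrophic than in perichondral, reserve and proliferative arrays. In these comparisons 0 of the 6 were called (limma), where the background was 0.029%, 0.0226% and 0.0129%. The counts were the same with values as deposited and median-centred.

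Vkorc1, the vitamin K epoxide reductase, was at 10.56 and 10.16 in perichondral, 11.45 and 9.13 in reserve, 9.41 and 9.26 in proliferative and 9.02 and 5.47 in hypertrophic arrays at 42 and 46 days. Its perichondral to hypertrophic difference was 3.11 (SE 0.99, adjusted p = 0.672 with limma), and its level at 46 days was the lower in each zone. Ggcx, the carboxylase itself, is given although the rule for named genes did not pick it, because the modification depends on it. It was at 8.98 and 7.66 in perichondral, 9.13 and 8.40 in reserve, 8.15 and 6.81 in proliferative and 7.10 and 5.45 in hypertrophic arrays, below the other-organ level throughout. Calu, a calcium-binding inhibitor of the carboxylase, averaged 9.87 in reserve and 7.21 in hypertrophic arrays. Aifm2, a vitamin K reductase, averaged 9.93 in perichondral and 7.59 ± 3.56 (SD, n = 2) in hypertrophic arrays. At 42 and 46 days it was at 10.12 and 9.74 in perichondral and 10.11 and 5.08 in hypertrophic arrays, so the gap came from the 46-day pair. Vkorc1l1, the paralogue of Vkorc1, varied less, from 10.01 in hypertrophic to 11.18 in proliferative arrays.

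**Figure D3:**
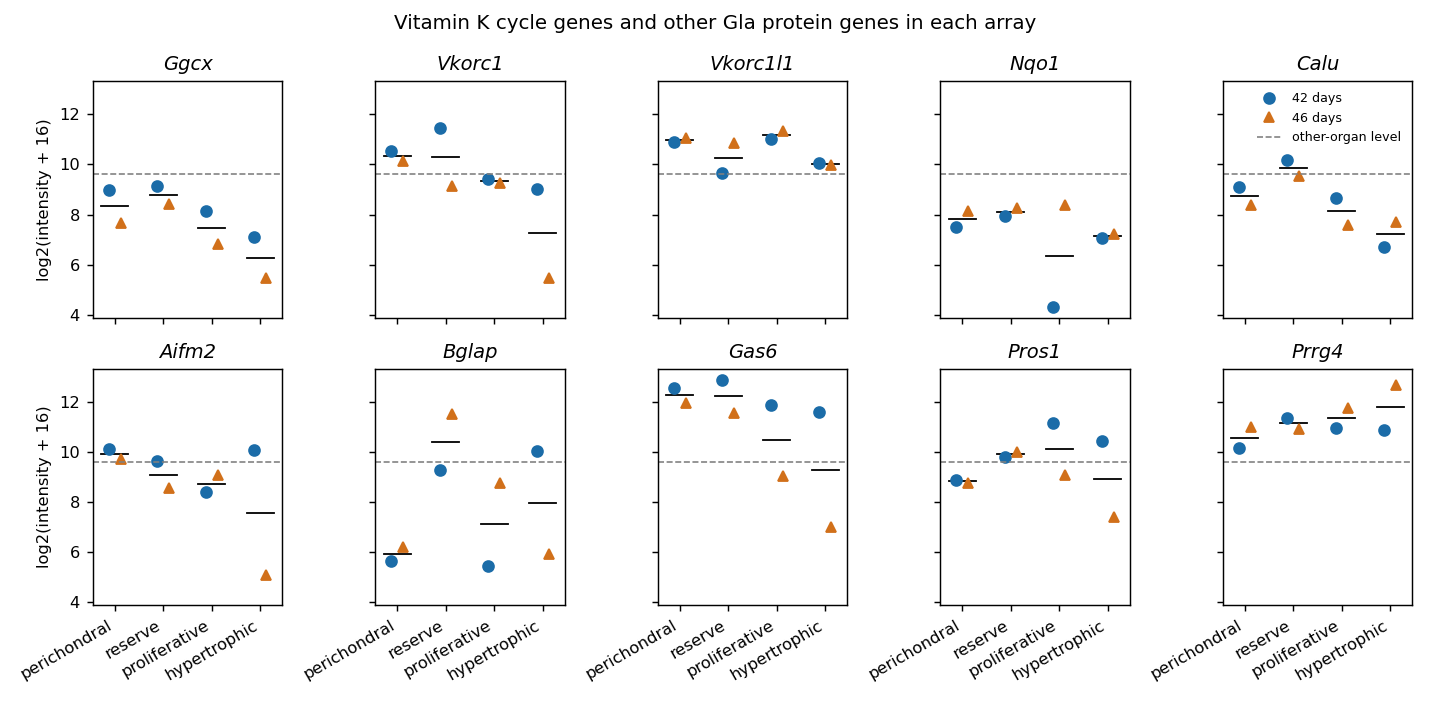
Each panel shows 1 gene, the 6 measured vitamin K cycle genes and the 4 other Gla protein genes above the other-organ level, as log2(intensity + 16) after quantile normalization in each array by zone. Circles are 42-day and triangles 46-day arrays, bars are zone means and the dashed line is the other-organ level. Ggcx, Vkorc1 and Gas6 have their lowest zone mean in hypertrophic arrays and are lower at 46 days in each zone.

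Other Gla proteins did not share one pattern. Of 9 measured genes (13 listed), 7 were higher in hypertrophic than in perichondral arrays, beside 49.2% of all genes. The median perichondral minus hypertrophic difference was -0.16, and 0 were called in any zone comparison or by age. The circulating clotting factors F2, F9 and F10 and protein C (Proc) were below the other-organ level in every zone mean. Gas6, a growth factor that binds the receptors Axl, Tyro3 and Mertk, was at 12.57 and 11.98 in perichondral, 12.90 and 11.58 in reserve, 11.89 and 9.06 in proliferative and 11.61 and 7.0 in hypertrophic arrays at 42 and 46 days. Its age difference was -2.34 (SE 0.50, adjusted p = 0.118 with limma), lower in 4 of 4 zones. Its perichondral to hypertrophic difference was 2.97 (SE 1.10, adjusted p = 0.736).

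Bglap (osteocalcin), the Gla protein of bone, had its highest level in reserve arrays, at 9.30 and 11.54, and was at 5.65 and 6.20 in perichondral, 5.45 and 8.79 in proliferative and 10.04 and 5.92 in hypertrophic arrays. Its levels overlapped in 4 of 6 pairs of zones. The osteoblast and osteocyte list, which holds Bglap, also summed high in the reserve arrays and highest in the 42-day hypertrophic array, and the part of bone cells in these levels was not tested. Pros1 (protein S) averaged 10.14 in proliferative and 8.85 in perichondral arrays, and Prrg4, a membrane Gla protein, ran from 10.58 in perichondral to 11.79 in hypertrophic arrays, opposite in order to Ucma. The Gas6 and protein S receptors Axl, Tyro3 and Mertk were below the other-organ level in all zone means, with 0 of 3 called.

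Genes of mineral and phosphate handling were mostly dim, with 4 of 15 above the other-organ level and 0 called in any comparison. In reserve arrays 14 of 15 were higher than in hypertrophic arrays (median difference 0.84, against 0.07 over all genes, of which 47.6% were lower in reserve arrays). Anxa2, an annexin, averaged 9.97 in reserve and 8.18 in hypertrophic arrays, Ankh, a pyrophosphate exporter, 9.89 and 8.21, and Anxa5, an annexin of matrix vesicles, 10.10 and 8.60. Mgp binds BMPs, and of 18 measured BMP ligands, receptors, antagonists and targets 0 were called. Id2, a target of BMP signalling, averaged 12.44 in perichondral and 8.61 in hypertrophic arrays (difference 3.83, SE 0.84, adjusted p = 0.233 with limma), and the BMP antagonists Nog and Chrd were highest in perichondral arrays at 11.23 and 9.63. Bmp2 averaged 10.01 in perichondral arrays, 10.07 in reserve arrays, 10.11 in proliferative arrays and 8.80 in hypertrophic arrays, and Bmp4 ran only from 9.35 to 10.06.

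Of the transcription factors listed, 6 of 11 were measured and 0 called, and Sox9, Runx2 and Sp7 had no probe set with a single gene name. Sox6, a partner of Sox9, averaged 9.90 in perichondral and 8.43 in proliferative arrays, Mef2c, a driver of hypertrophy, ran from 12.39 to 13.34, and Foxa2 was highest in hypertrophic arrays at 9.74. Among the proteases that cleave secreted precursors, Furin was bright in each zone, from 10.43 in reserve to 11.39 in hypertrophic arrays, and Pcsk5 was highest in reserve arrays at 9.65. None of the 5 genes of that list was called, and the list's median perichondral to hypertrophic difference was 0.56, against 0.02 over all genes.

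The genes whose levels ran most like Ucma were taken by Pearson correlation over the 8 arrays, among 4389 bright and variable probe sets, and are given with no test. They were Pdzrn3, a ubiquitin ligase (r = 0.99), Mab21l2 (0.97), Chad (0.97), Tusc3, a subunit of the oligosaccharyltransferase (0.96), the actin-binding protein Svil (0.96), Eif5a2 (0.96), the mitochondrial phosphatase Ptpmt1 (0.96) and the transhydrogenase Nnt (0.96). Pdzrn3 averaged 11.83 in perichondral arrays, 11.52 in reserve arrays, 10.24 in proliferative arrays and 5.89 in hypertrophic arrays, and Nnt averaged 11.49, 11.23, 8.53 and 5.28. Eif5a2 had the same order with a span of only 10.26 to 8.80. The genes that ran most against Ucma were Ncoa1, a nuclear receptor coactivator, Olr1271 and Ttyh2 (r = -0.94 each), and Ncoa1 averaged 10.23 in perichondral and 11.39 in hypertrophic arrays.

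No gene stands in both sets of 8, which says little about the members, as 8 is a small part of 4389 probe sets. The genes most like Mgp were taken by the same rule. They were Chpt1, of phosphatidylcholine synthesis (r = 0.99), the retinol carrier Rbp4 (0.98), Hoxa9 (0.97), the proteoglycan Ogn (0.96), Zfp617 (0.96), the clathrin adaptor subunit Ap2m1 (0.96), the desaturase Scd2 (0.96) and the zinc transporter Slc39a14 (0.96). All 8 had a negative age difference, from -3.07 for Rbp4 to -0.44 for Scd2, which is not independent of a likeness taken over arrays of both ages. Rbp4 was the gene of this set with the widest span, at 10.86 ± 1.53 (SD, n = 2) in perichondral arrays, 10.38 ± 2.82 in reserve arrays, 7.07 ± 2.45 in proliferative arrays and 6.19 ± 1.90 in hypertrophic arrays. Ogn averaged 12.92, 11.97, 9.78 and 8.41 in the same order. Met, Arhgap28 and Rfx7 ran most against Mgp (r = -0.96 each).

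**Figure D4:**
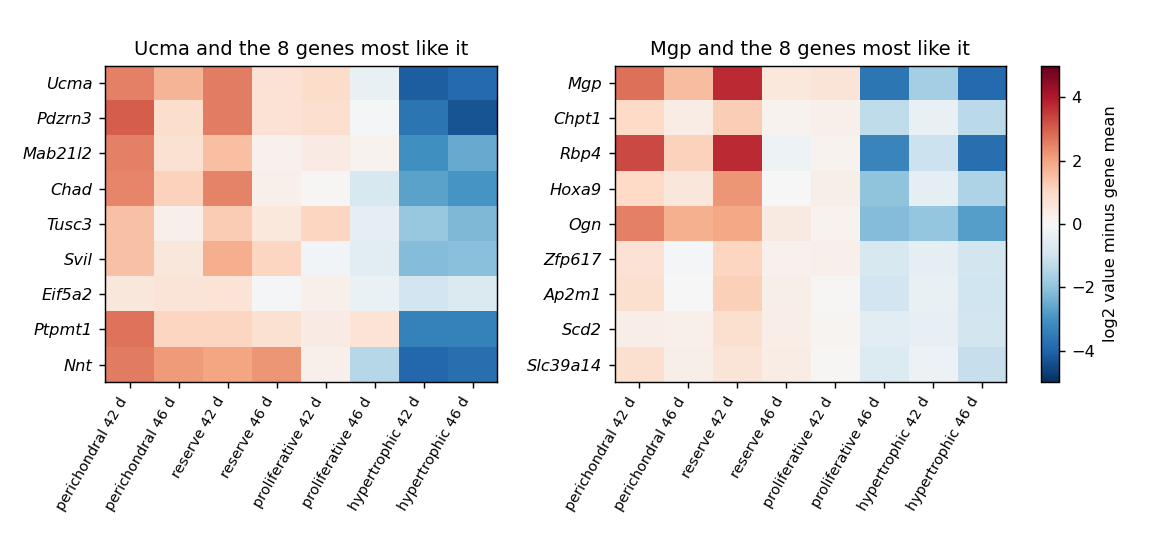
Rows are Ucma (left) or Mgp (right) and the 8 genes most like each, columns are the 8 arrays, and colour is the log2 value minus the mean of that gene. In the Ucma panel both hypertrophic columns are blue. In the Mgp panel the 46-day proliferative column is blue like the 46-day hypertrophic one, and the 42-day proliferative column is near white.

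Of the promoters of these genes, 6 for the Ucma set and 7 for the Mgp set were in the RefSeq table. The CCAAT box was in 5 of 6 and 3 of 7 of them, against 34.0% of all windows. The Runx motif, which the Ucma window holds, was in 0 of 6 and 0 of 7, and the AP-1 motif, which it also holds, in 0 of 6 and 1 of 7 (Rbp4). The TATA box was in 2 of 6 and 3 of 7 and the GC box in 3 of 6 and 4 of 7, against 12.9% and 30.5% of all windows. The Sox and Fox motifs were each in 0 of 6 and 0 of 7.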

How the data were processed

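Array intensities of 8 samples were taken from the deposited table, which the authors provided on a linear scale. Per the submitters' processing notes, MAS5, GCOS and RMA were used, in roles and versions not given in the sources used here. Control probe sets (57) were left out, and the deposited intensities of 31042 probe sets were used as log2(intensity + 16), quantile normalized with limma 3.58.1 in R 4.3.3. Symbols came from the platform annotation, updated through gene identifiers, with 20826 probe sets naming 1 gene, 436 several and 9780 none. Where a listed gene had several probe sets, the brightest on average stood for it.

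A limma model with a mean per zone (4 residual degrees of freedom, variance trend) was fitted to all arrays, and a second model with zone and age terms tested age (3 residual degrees of freedom). P-values were adjusted by Benjamini-Hochberg over all probe sets, at a threshold of 0.05. SEs and p-values rest only on spread between pools, which within a zone also differ in age. The limma fits drew the variance of each probe set toward a trend with level shared by all probe sets. The shared part had 12.58 degrees of freedom in the zone fit and 15.8 in the age fit, above the residual 4 and 3. The SEs of Ucma and Mgp are therefore not the spread of their own arrays alone. Without the trend, the SE of the Mgp age difference was 0.63, against 0.42 with it. The fits were run on simulated data with known changes and independent noise. Such data hold no shared rats, RNA quality shift or link between genes, so that check does not cover these limits. Folds given as "at least" set arrays below the other-organ level, a yardstick and not a detection limit, to that level.

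Ucma and Mgp, and the lists, were chosen with earlier results of these arrays known. Whether age entered that choice is not recorded, so the age test is no independent support. The genes named were both members, and from each of 8 pathway lists any gene called and up to 3 others with the widest gap between zone means whose highest mean was above the other-organ level. The 8 most and 3 least similar genes to each member were also named, among single-gene probe sets above that level with an SD of at least 0.5. Genes named outside this rule (such as Ggcx, Bmp2, Bmp4, Prrg4 and Col2a1) were chosen with their values known.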

Additional observations from a re-analysis of the deposited data

Results flagged for a closer look

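The age difference of Ucma had opposite signs in different zones. It was 0.23 (log2) in the hypertrophic zone and from -1.84 to -0.81 in the other 3 zones. Each zone has 1 pair of arrays, and the difference between zones was not tested. Both hypertrophic values lay below the other-organ level.

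The perichondral minus reserve difference turned with age in both genes. It was -0.96 at 42 days and 1.03 at 46 days for Mgp, and -0.0594 at 42 days and 0.97 at 46 days for Ucma. As deposited, Ucma in perichondral arrays was 1.10 times the reserve level at 42 days and 1.84 times at 46 days. Its sign at 42 days thus depends on the scaling, whereas that of Mgp was opposite at the 2 ages on both scales. Each value compares 1 array with 1 array, and the difference between ages was not tested.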

How the results depend on the processing

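The negative age difference of Mgp kept its sign in all 15 alternatives, from -3.22 to -2.02, and passed the threshold in 3 of them, at -2.84 with values as deposited, -3.08 median-centred and -2.61 with a pseudocount of 64. That of Ucma ran from -1.51 to -0.06 and passed in none of 15. Probe sets called for age were 0, but 45 as deposited (43 lower at 46 days), 140 median-centred (137 lower), 5 with a pseudocount of 64 and 1 with the Gapdh ratio as a covariate. As deposited, the median probe set differed by 0.16 with age and by -0.18 between reserve and either proliferative or hypertrophic arrays. With age as a replicate block the zone comparisons gave 3 (perichondral minus reserve), 13 (perichondral minus proliferative), 55 (perichondral minus hypertrophic), 60 (reserve minus proliferative), 38 (reserve minus hypertrophic) and 11 (proliferative minus hypertrophic), against 0, 0, 9, 7, 7 and 4. Age deviations correlated between zones at r from 0.0225 to 0.0806 across all probe sets and from 0.0581 to 0.31 across the brightest 0.2, where 4 of 6 zone pairs were over 0.1. Not every pair was over 0.1 in either set, so the numbers were not taken to pair the arrays. Fits to only the 2 zones compared gave 9 for perichondral minus reserve, 27 for reserve minus proliferative, 0 for reserve minus hypertrophic and 1 for proliferative minus hypertrophic. Reserve minus proliferative gave 14 as deposited and 16 with a pseudocount of 64. Median-centred arrays gave 1 for perichondral minus hypertrophic, 1 for reserve minus hypertrophic and 0 for proliferative minus hypertrophic, which gave 2 with a pseudocount of 1 and 1 with the filter on dim probe sets. Without the variance trend all 4 non-zero zone counts were 0. The cause of these shifts was not tested. Leaving out 1 array, the counts ran from 0 to 1, 0 to 6, 0 to 50, 0 to 47, 0 to 167 and 0 to 13 in the order of the block counts, and from 0 to 5 for age, where 5 came without either reserve array. The Mgp differences then ran from -1.57 to 1.64 (perichondral minus reserve), 1.53 to 5.76 (perichondral minus proliferative), 3.84 to 6.06 (perichondral minus hypertrophic), 1.49 to 5.73 (reserve minus proliferative), 3.31 to 6.52 (reserve minus hypertrophic) and -0.81 to 3.42 (proliferative minus hypertrophic). Those of Ucma ran from -0.46 to 1.38, 1.21 to 2.50, 5.72 to 6.53, 0.47 to 2.32, 4.75 to 6.59 and 3.63 to 4.92 in that order. Scaling and pseudocount moved none of these 12 differences beyond the spread of the arrays, though Mgp perichondral minus reserve was -0.05 when median-centred. That spread, the pooled SD of the 2 zones compared, ran from 0.42 to 2.66, so it is a loose allowance, above all for Mgp.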

Other observations

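Genes that neighbour Ucma and Mgp on their chromosomes, in RefSeq order, were looked at as values. Phyh, the peroxisomal phytanoyl-CoA hydroxylase and the gene next to Ucma on one side, averaged 15.84 in perichondral arrays, 14.85 in reserve arrays, 14.42 in proliferative arrays and 12.89 in hypertrophic arrays, the order of zones seen for Ucma, with r = 0.72 to Ucma over 8 arrays. Mcm10, on the other side, ran from 8.77 in perichondral to 9.10 in hypertrophic arrays, below the other-organ level. The nearest measured neighbours of Mgp, Art4 and Erp27, were below that level in every zone mean.

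By unadjusted p for age, the probe sets ranked just after Mgp were those of Nfat5, a transcription factor of the osmotic response (-2.61, SE 0.43), the glycolytic enzyme Pgk1 (-2.03, SE 0.33), Fmod (-2.22, SE 0.37), Cyp20a1 (-2.30, SE 0.39) and Gpr108 (-3.42, SE 0.59). Each was lower at 46 days in 4 of 4 zones and had an adjusted p of 0.0693 with limma, as Mgp did. These genes were picked after their values were seen.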
